A study of Mus musculus with 14 samples.

Results

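Immature type 1 innate lymphoid cells (iILC1) and immature natural killer cells (iNK) from the bone marrow of control mice were compared across all expressed genes. The comparison used 3 iILC1 and 3 iNK libraries, 6 of the 14 libraries measured, and 26990 of 46078 genes in the count table had enough counts to be tested. Every mouse behind these 6 libraries was C57BL/6, 8 weeks old and Il-15-flox/KO, that is, it carried a floxed allele of Il15 beside a knockout allele and no Cre. Both groups therefore shared the knockout allele, and no wild-type group was analysed here. The other 8 libraries, 4 for each cell type, came from Vav-Cre; Il-15-flox/KO mice (cKO), in which Cre made in blood-forming cells deletes the floxed allele. For each library 2000 cells were sorted and sequenced in bulk. The iNK gate took cells with NK1.1, DX5 and CD27 and without CD3, IL-7Ra and CD11b, and the iILC1 gate took cells with NK1.1, IL-7Ra and CD49a and without CD3. Nothing in the labels states that each library had a mouse of its own, and the p-values below measure only the spread between these libraries, which may be technical.

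NK cells and ILC1s together form group 1 of the innate lymphoid cells, which lack rearranged antigen receptors and make interferon gamma. Both depend on the transcription factor T-bet and on IL-15. NK cells add the related factor Eomes, circulate in blood and kill with perforin and granzymes, whereas ILC1s mostly stay in tissues, need less Eomes, and carry IL-7 receptor, CD49a and the death ligand TRAIL. In the marrow both pass through immature stages that still divide.

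The control iILC1 libraries were shallower, with 3512796 to 4933284 counts against 6238016 to 8013984 in control iNK. As a measure of background reads, 1318 odour and pheromone receptor genes were summed, whose known place of use is the nose. The sum was 2650 ± 460 CPM (library-scaled counts, TMM factors included; SD, n = 3) in iILC1, with a range of 2126 to 2988, and 1787 ± 571 CPM in iNK, with a range of 1358 to 2435. The shift of all genes between the groups also depended on level. The median log2 fold change, iILC1 over iNK, was 0.45 for 14521 genes at 1 to 10 CPM, −0.22 for 8571 genes at 10 to 100 CPM and −0.44 for 2418 genes above 100 CPM. For the same genes the medians in cKO were 0.07, −0.04 and −0.09. The control libraries thus differed in depth, background and cell type together, and the part of depth and background in any one gene's difference cannot be told apart from that of cell type by design.

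**Figure D1:**
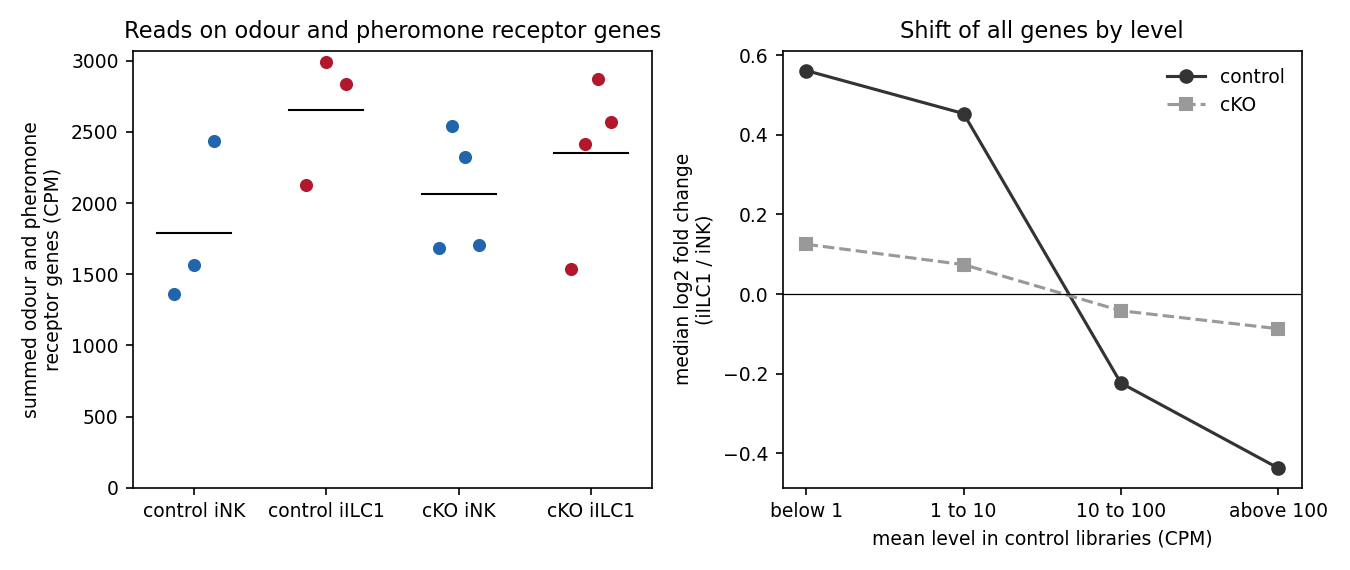
Left, summed CPM of odour and pheromone receptor genes in each of the 14 libraries (points) with group means (bars), iNK in blue and iILC1 in red. Right, median log2 fold change of iILC1 over iNK for genes binned by mean level in the control libraries, where the control line falls from 0.56 below 1 CPM to −0.44 above 100 CPM and the cKO line stays between 0.13 and −0.09.

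Of the 26990 genes, 1056 (3.91%) passed edgeR's quasi-likelihood test at an adjusted p of 0.05 and are called here; 246 (0.911%) were higher and 810 (3%) lower in iILC1. The shares of 0.911% higher and 3% lower are the background for every list count below. They depended on level. At 1 to 10 CPM 96 of 14521 genes were called higher and 61 lower. At 10 to 100 CPM 131 of 8571 were called higher and 504 lower, and above 100 CPM 15 of 2418 higher and 243 lower. In 771 of the 1056 the difference was over 2-fold, and in 72 over 8-fold. The 3 iILC1 and 3 iNK libraries did not overlap in 1047 of the 1056, against 25% of all genes tested (12% with iILC1 higher and 13% with iILC1 lower). The excess of lower calls changed with scaling. Calls higher in iILC1 made up 23.3% of all calls, but 38.9% of 1089 with upper-quartile factors, 45.7% of 869 with the receptor sum of each library as a term in the fit (the background covariate) and 57.3% of 895 when libraries were scaled on genes above 50 CPM. The median log2 fold change of all genes, 0.16, became 0.39, 0.00 and 0.53 in the same order. The count also rested on single libraries. It was 467 without iNK replicate 1, 639 without iNK replicate 2, 1701 without iNK replicate 3, 394 without iILC1 replicate 2 and 454 without iILC1 replicate 3. Of 94 called genes named by a fixed rule, 73 stayed called under all 18 alternatives tried, and none changed direction. The 94 include the gate genes Il7r, Itga1 and Itga2. Most were named for a large fold or a small p in these libraries, which the alternatives reuse, so their stability is no independent support.

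**Figure D2:**
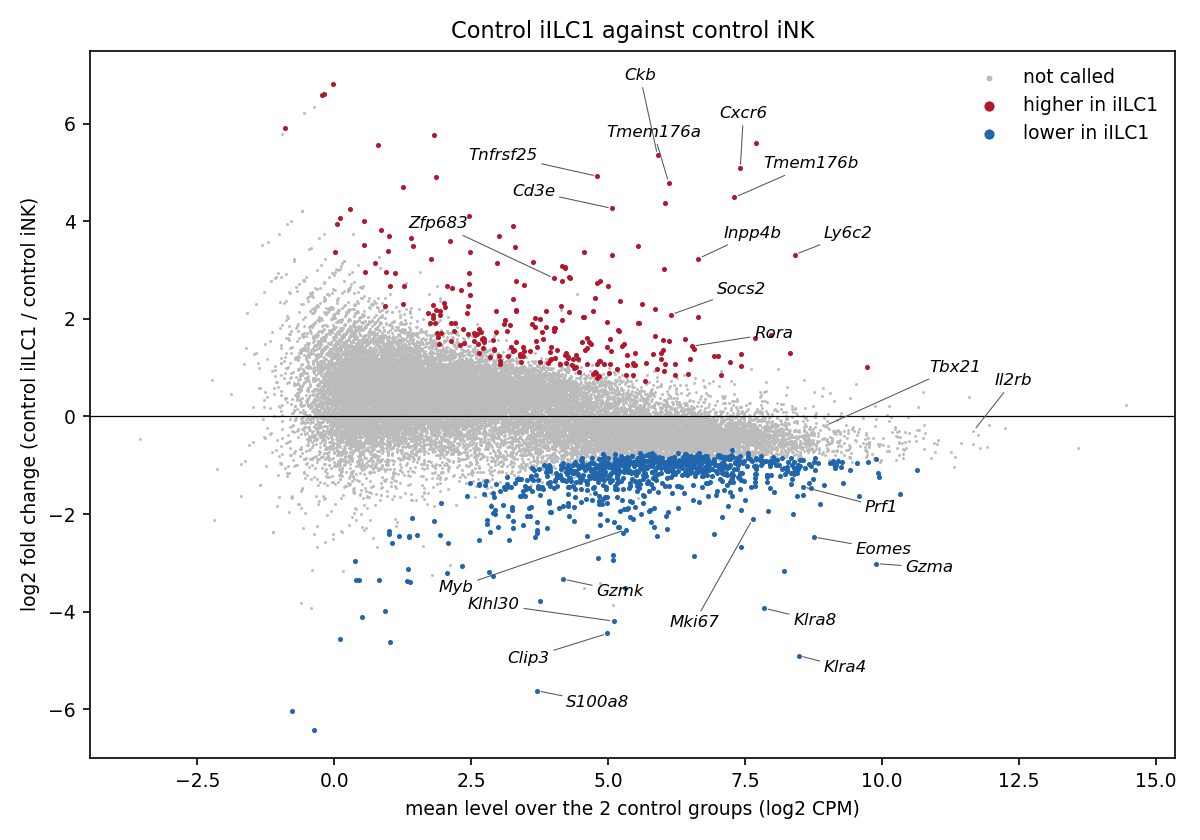
Log2 fold change of control iILC1 over control iNK against mean level for 26990 genes (points), with 246 genes called higher in red, 810 called lower in blue and the others in grey. Lower calls crowd at middle and high levels, and the genes with the largest folds at those levels include Cxcr6, Ckb and the Tmem176 pair on the higher side and Klra4, Klra8 and Gzma on the lower side.

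The genes of the gate proteins checked the sort and are no finding. Il7r lay at 7.03, 6.71 and 11.4 CPM in the iNK libraries and at 472, 351 and 401 CPM in the iILC1 libraries, with no overlap. Itga1, for CD49a, was higher in iILC1 and Itga2, for DX5, lower (log2 fold changes 2.37 and −1.35). Cd27 (−0.39) and Itgam (−0.34), gated at the protein level in iNK only, did not pass. Il15 itself, the gene altered in all these mice, lay at 11.1, 10.3 and 8.16 CPM in iNK and 13.8, 13.3 and 11.7 CPM in iILC1. Its difference did not pass (log2 fold change 0.39, edgeR adjusted p = 0.461), and since the count covers all exons and alleles it does not check the genotype.

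Among transcription factors of the group 1 lineages, Eomes, Myb and Prdm1 fell in iILC1, while Zfp683 and Ikzf2 rose. Tbx21, for T-bet, had similar means. Of 25 such regulators tested, 3 were higher and 5 lower, and their median log2 fold change was −0.45, against 0.16 over all genes. That median was 0.05 with the background covariate. Without iNK replicate 3, 10 were called lower. Eomes (mm10, as all gene positions here; chromosome 9, 118478212 to 118486132, plus strand) drives NK maturation. It lay at 884, 824 and 486 CPM in the iNK libraries and 147, 134 and 114 CPM in the iILC1 libraries, 732 ± 214 CPM against 132 ± 17 CPM (SD, n = 3; log2 fold change −2.47, SE 0.275, adjusted p = 8.7e-07, edgeR). The groups lay far apart, and the lowest iNK value was replicate 3. In bulk libraries fewer cells of a type and less RNA per cell cannot be told apart, so this difference may be one of cell numbers or of level per cell.

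Zfp683 encodes Hobit, a repressor tied to tissue-resident lymphocytes (chromosome 4, 134053838 to 134058996, plus strand). It lay at 4.53, 4.26 and 3.04 CPM in iNK and 31.3, 24.2 and 29.3 CPM in iILC1 (log2 fold change 2.83, SE 0.359, adjusted p = 7.26e-06, edgeR). Its paralogue Prdm1, for Blimp-1, went the other way, from 98.5, 118 and 83.2 CPM in iNK to 41, 36 and 34.3 CPM in iILC1 (log2 fold change −1.44, SE 0.243, adjusted p = 0.000447, edgeR). Neither pair of groups overlapped. Myb, a progenitor factor, fell by 2.32 on the log2 scale, from 66.7 ± 22.2 CPM to 13.4 ± 0.48 CPM (SD, n = 3), and Ikzf2, for Helios, rose by 1.19. The remaining called members were Irf4 (1.68), Irf8 (−1.34) and Klf12 (−1.14). Tbx21 lay at 677, 530 and 378 CPM in iNK and 625, 343 and 416 CPM in iILC1, and the libraries of the groups interleaved. Its log2 fold change was −0.20 (SE 0.298, edgeR adjusted p = 0.717), and it turned to 0.42 with the background covariate. Tcf7, for TCF-1, had −0.73 and did not pass (edgeR adjusted p = 0.139), but was called lower without iNK replicate 3 (−0.99, 0.0322) and by DESeq2 (−0.77, 0.0421).

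Of 20 regulators shared with other innate lymphoid cells, 5 rose and Tcf3 fell (−1.0), with a median of 0.23. Rora, for ROR alpha, lay at 56.9, 50.9 and 40.8 CPM in iNK and 147, 150.5 and 106 CPM in iILC1 (log2 fold change 1.44, SE 0.243, adjusted p = 0.000434, edgeR). Ahr, the aryl hydrocarbon receptor, rose by 1.44, Maf by 1.49 and Bcl11b by 2.03. Bcl11b lay at 8.59, 9.5 and 9.6 CPM in iNK and 47.4, 25 and 41.2 CPM in iILC1, with no overlap. Gata3 (0.19) and Zbtb16 (−0.05), for PLZF, did not pass, with edgeR adjusted p-values of 0.68 and 0.916, and the estimates of both changed sign under alternatives. Gata3 was called higher with the background covariate (log2 fold change 0.77, edgeR adjusted p = 0.00814) and with scaling on genes above 50 CPM (0.59, 0.0209). Bcl11b in iNK, at 1.14 CPM per kilobase of exon, was below 3.54 CPM per kilobase, the 95th percentile of the odour and pheromone receptors there. Of 40 named genes called higher, 26 lay at or below that floor in iNK. In iILC1, where the same percentile was 4.84, 4 of these were also at or below it, Bcl11b (4.67 CPM per kilobase), Maf (4.59), Btla (4.23) and Nr1d1 (3.28), so both sides of their folds are near the background.

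Several granule genes of killing fell in iILC1. Of 23 granule and death effectors tested, 9 fell and Tnfsf10 rose, against 3% lower and 0.911% higher over all genes. The median was −0.56 (−0.16 with the background covariate, with 8 lower). Without iILC1 replicate 2, 4 were called lower. Gzma encodes granzyme A (chromosome 13, 113093825 to 113100979, minus strand) and lay at 2063, 1595 and 1416 CPM in iNK and 254, 212 and 161 CPM in iILC1, 1691 ± 334 CPM against 209 ± 46.9 CPM (SD, n = 3; log2 fold change −3.02, SE 0.275, adjusted p = 2.57e-08, edgeR). Gzmb, for granzyme B (chromosome 14, 56258856 to 56262260, minus strand), lay at 133, 156 and 116 CPM and 48.5, 39.4 and 64.8 CPM (log2 fold change −1.41, SE 0.251, adjusted p = 0.000785, edgeR). Prf1, for the pore protein perforin, lay at 687, 624 and 329 CPM in iNK, with replicate 3 lowest, and 247, 174 and 183 CPM in iILC1 (log2 fold change −1.44, SE 0.281, adjusted p = 0.00212, edgeR). No pair of groups overlapped in these 3 genes. Gzmk fell by 3.33 on the log2 scale, from 32.8 ± 4.3 CPM to 3.34 ± 1.17 CPM (SD, n = 3). Gzmm (−1.10), Nkg7 (−1.10), Cst7 (−1.01) and the granzyme inhibitors Serpinb9 (−1.03) and Serpinb6b (−1.07) were the other lower members. Per kilobase of exon the order in iNK was Gzma at 1930 CPM, Prf1 at 266, Gzmb at 95.5 and Gzmk at 23.6. In iILC1 the order was the same, with Gzma at 238 CPM per kilobase, Prf1 at 98.1, Gzmb at 35.9 and Gzmk at 2.4, the last below the receptor floor of 4.84 there.

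The 250 bases before the RefSeq start sites of Gzma (GRCm38.p6, chr13:113100982-113101231, minus strand) and Gzmb (chr14:56262335-56262584, minus strand) are shown because both hold a match to the RUNX motif, the site of a factor family active in lymphocytes. They are read 5′ to 3′ along the gene, and capitals mark matches to TGTGGTT on either strand and, in Gzmb, one to the AP-1 motif TGAGTCA.
Gzma: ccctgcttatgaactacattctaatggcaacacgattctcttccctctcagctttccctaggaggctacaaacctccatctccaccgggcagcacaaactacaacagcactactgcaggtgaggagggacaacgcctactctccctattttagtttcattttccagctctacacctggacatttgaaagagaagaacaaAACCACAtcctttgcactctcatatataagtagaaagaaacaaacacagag
Gzmb: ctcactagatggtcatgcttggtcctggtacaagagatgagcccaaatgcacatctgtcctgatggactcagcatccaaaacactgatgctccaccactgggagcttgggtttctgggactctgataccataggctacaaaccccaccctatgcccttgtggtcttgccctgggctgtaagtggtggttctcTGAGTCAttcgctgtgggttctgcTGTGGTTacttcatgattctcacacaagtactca
Such a match is a description of letters and not of binding. Promoters of 15831 tested genes, each from 250 bases before to 50 after the start, were searched on both strands. The RUNX motif was found in 4.57% of them, in 8.33% of the 156 called higher and in 3.07% of the 619 called lower. GATA motifs (AGATAA) were found in 8.96%, 8.33% and 4.68% in the same order, T-box motifs (GGTGTGA) in 3.67%, 2.56% and 3.72%, and TCF/LEF motifs (CTTTGAT) in 3.13%, 4.49% and 3.39%. AP-1 motifs (TGACTCA or TGAGTCA) were in 4.38%, 4.49% and 3.72%, and E-boxes (CACGTG) in 8.46%, 5.13% and 9.21%. These shares were not tested.

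Tnfsf10, for TRAIL, was the single higher member of the effector list. It lay at 45, 42.6 and 38.9 CPM in iNK and 109, 74.5 and 83.5 CPM in iILC1 (log2 fold change 1.08, SE 0.246, adjusted p = 0.00987, edgeR), with no overlap. Without iILC1 replicate 1, its highest library, the edgeR adjusted p was 0.0531.

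The Ly49 receptors, encoded by the Klra genes and used by mouse NK cells to read MHC class I, had the lowest median of the 26 lists described here. Of 12 tested, 8 were lower and none higher, with a median of −1.75, and 8 were called lower whichever control library was left out. The 4 not called had estimates of −0.88 (Klra1), 0.14 (Klra5), 0.46 (Klra6) and 0.52 (Klra17). Klra4 (chromosome 6, 130043731 to 130067271, minus strand), the activating receptor Ly49D, lay at 835, 663 and 574 CPM in iNK and 17.8, 25.2 and 25.6 CPM in iILC1 (log2 fold change −4.90, SE 0.317, adjusted p = 3.64e-11, edgeR). Klra8 (chromosome 6, 130115226 to 130129898, minus strand), the activating Ly49H that recognises a cytomegalovirus protein, lay at 595, 448 and 251 CPM and 23.1, 40.5 and 20.9 CPM (log2 fold change −3.93, SE 0.326, adjusted p = 3.38e-09, edgeR). The lowest iNK library was far above the highest iILC1 library in both. Klra13-ps (−3.16), Klra14-ps (−2.86), Klra10 (−2.32), Klra3 (−1.87), Klra7 (−1.62) and Klra9 (−1.51) were the other lower members. Klra genes are close copies, and the rules for reads that match several are not given in the sources used here, so the split among members is uncertain.

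Klra4 and Klra8 fell together, and the 250 bases before their RefSeq start sites are shown to compare them (GRCm38.p6, chr6:130067272-130067521 and chr6:130129899-130130148, both minus strand).
Klra4: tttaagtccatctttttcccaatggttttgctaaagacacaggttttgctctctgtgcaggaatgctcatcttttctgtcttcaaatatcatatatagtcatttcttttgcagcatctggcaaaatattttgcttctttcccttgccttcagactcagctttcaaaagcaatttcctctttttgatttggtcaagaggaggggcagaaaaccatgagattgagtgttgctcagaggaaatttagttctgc
Klra8: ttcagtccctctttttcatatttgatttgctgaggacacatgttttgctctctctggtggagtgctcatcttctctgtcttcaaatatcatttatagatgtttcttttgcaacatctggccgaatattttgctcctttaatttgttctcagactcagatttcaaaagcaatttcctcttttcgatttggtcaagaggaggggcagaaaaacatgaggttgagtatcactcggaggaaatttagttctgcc
In a global alignment 212 of 251 columns were identical (84.5%). Neither held a match to the 6 motif classes searched.

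Some lectin receptors of the same gene complex fell. Of 19 CD94/NKG2 and NKR-P1 genes, 6 were lower and Klrb1b was higher, against 3% lower and 0.911% higher over all genes. The other 12 did not pass, and the median was −0.43 (−0.02 with the background covariate, with 4 lower and 3 higher). Without iILC1 replicate 2, 3 were called lower. Klri2 lay at 891, 708 and 577 CPM in iNK and 241, 185 and 197 CPM in iILC1 (log2 fold change −1.80, SE 0.258, adjusted p = 4.54e-05, edgeR). Klre1 fell by 1.61 and Klrc2, an activating NKG2 chain, by 1.46 on the log2 scale. Klrb1b, for the inhibitory receptor NKR-P1B, lay at 134, 123 and 106 CPM in iNK and 466, 330.5 and 353 CPM in iILC1 (log2 fold change 1.66, SE 0.254, adjusted p = 0.00012, edgeR), with every iILC1 library above every iNK library.

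Some adaptors and kinases that pass on activating signals fell. Of 27 activating receptors and adaptors, 9 fell and Cd226 rose (1.12), against 3% lower and 0.911% higher over all genes. The other 17 did not pass, and the median was −0.54, which became 0.05 with the background covariate (4 higher, 6 lower). Sh2d1a, for the SLAM adaptor SAP, lay at 185, 144 and 138 CPM in iNK and 52.6, 46.3 and 40.5 CPM in iILC1 (log2 fold change −1.74, SE 0.25, adjusted p = 4.68e-05, edgeR). Slamf6, a SLAM receptor, fell by 1.40, the kinase gene Fyn by 1.37 and Cd247, for the zeta signalling chain, by 1.19 on the log2 scale.

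Inhibitory receptors went both ways, with 4 of 17 higher and 2 lower. Only 1 was called higher without iNK replicate 1, and 2 without iNK replicate 2, iILC1 replicate 1 or iILC1 replicate 3. Cd200r1, the receptor for CD200, lay at 6.72, 6.88 and 12 CPM in iNK and 57.6, 54.9 and 52.2 CPM in iILC1 (log2 fold change 2.68, SE 0.332, adjusted p = 5.02e-06, edgeR), and the groups did not overlap. Ctla4 (2.18), Btla (1.75) and Pilrb1 (1.36) were also higher. The Btla call was lost without iNK replicate 1 or iILC1 replicate 3 (edgeR adjusted p of 0.0555 and 0.078). Tigit, a checkpoint receptor, lay at 20.8, 26.7 and 26.1 CPM in iNK and 2.92, 4.57 and 10.8 CPM in iILC1 (log2 fold change −1.96, SE 0.351, adjusted p = 0.000863, edgeR), and Lair1, a collagen receptor, fell by 1.49 on the log2 scale. With libraries scaled on genes above 50 CPM, Lair1 was not called (edgeR adjusted p = 0.0676).

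**Figure D3:**
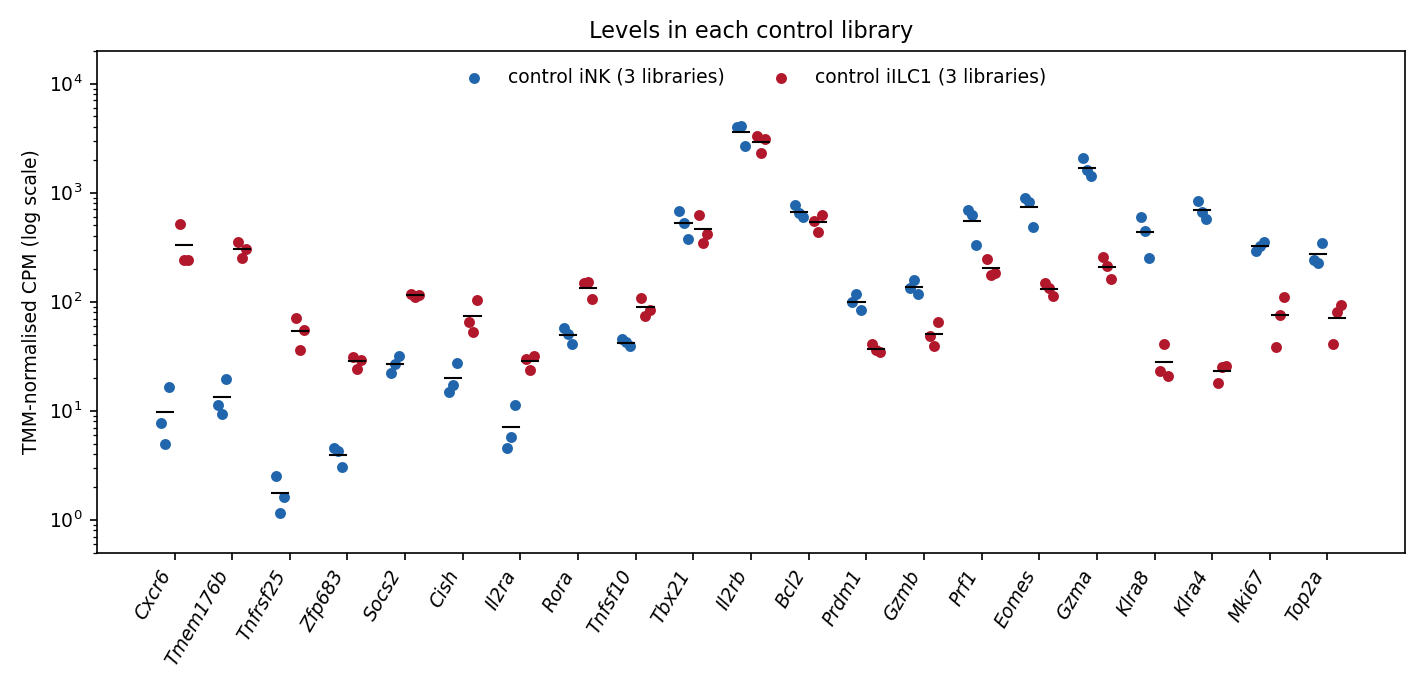
TMM-normalised CPM (log axis) of 21 named genes in the 3 control iNK (blue) and 3 control iILC1 (red) libraries, with group means as bars. Cxcr6 to Tnfsf10 are higher in all 3 iILC1 libraries, Tbx21, Il2rb and Bcl2 overlap between the groups, and Prdm1 to Top2a are lower in all 3 iILC1 libraries.

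Genes of cell division were lower in iILC1. Of 36 mitosis genes, 31 fell and all 36 had estimates below 0, with a median of −1.45. Of 35 genes of DNA replication and entry into S phase, 23 fell and all 35 estimates were below 0, with a median of −1.18. Mki67, for the proliferation marker Ki-67 (chromosome 7, 135689788 to 135716379, minus strand), lay at 292, 323 and 354 CPM in iNK and 38.6, 75.9 and 110.3 CPM in iILC1, 323 ± 30.7 CPM against 74.9 ± 35.9 CPM (SD, n = 3; log2 fold change −2.10, SE 0.307, adjusted p = 6.23e-05, edgeR). Top2a, for the topoisomerase that untangles chromosomes, lay at 241, 225 and 348 CPM and 40.6, 80.5 and 92.9 CPM (log2 fold change −1.92, SE 0.298, adjusted p = 0.000153, edgeR). In both genes the groups were well apart, with iILC1 replicate 1, the shallowest library, the lowest.

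Kif11, a spindle motor, fell by 1.95 and Cdc20, an activator of the anaphase complex, by 1.94 on the log2 scale. Among replication genes, E2f2 fell by 2.27, the origin-licensing gene Cdc6 by 2.17, the dUTPase gene Dut by 1.61 and the DNA ligase gene Lig1 by 1.42. Leaving out single libraries left 25 to 29 mitosis and 13 to 21 replication genes called lower, the 13 without iILC1 replicate 2. Scaled on genes above 50 CPM, 9 mitosis and 14 replication genes were called lower, with medians of −1.09 and −0.84.

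**Figure D4:**
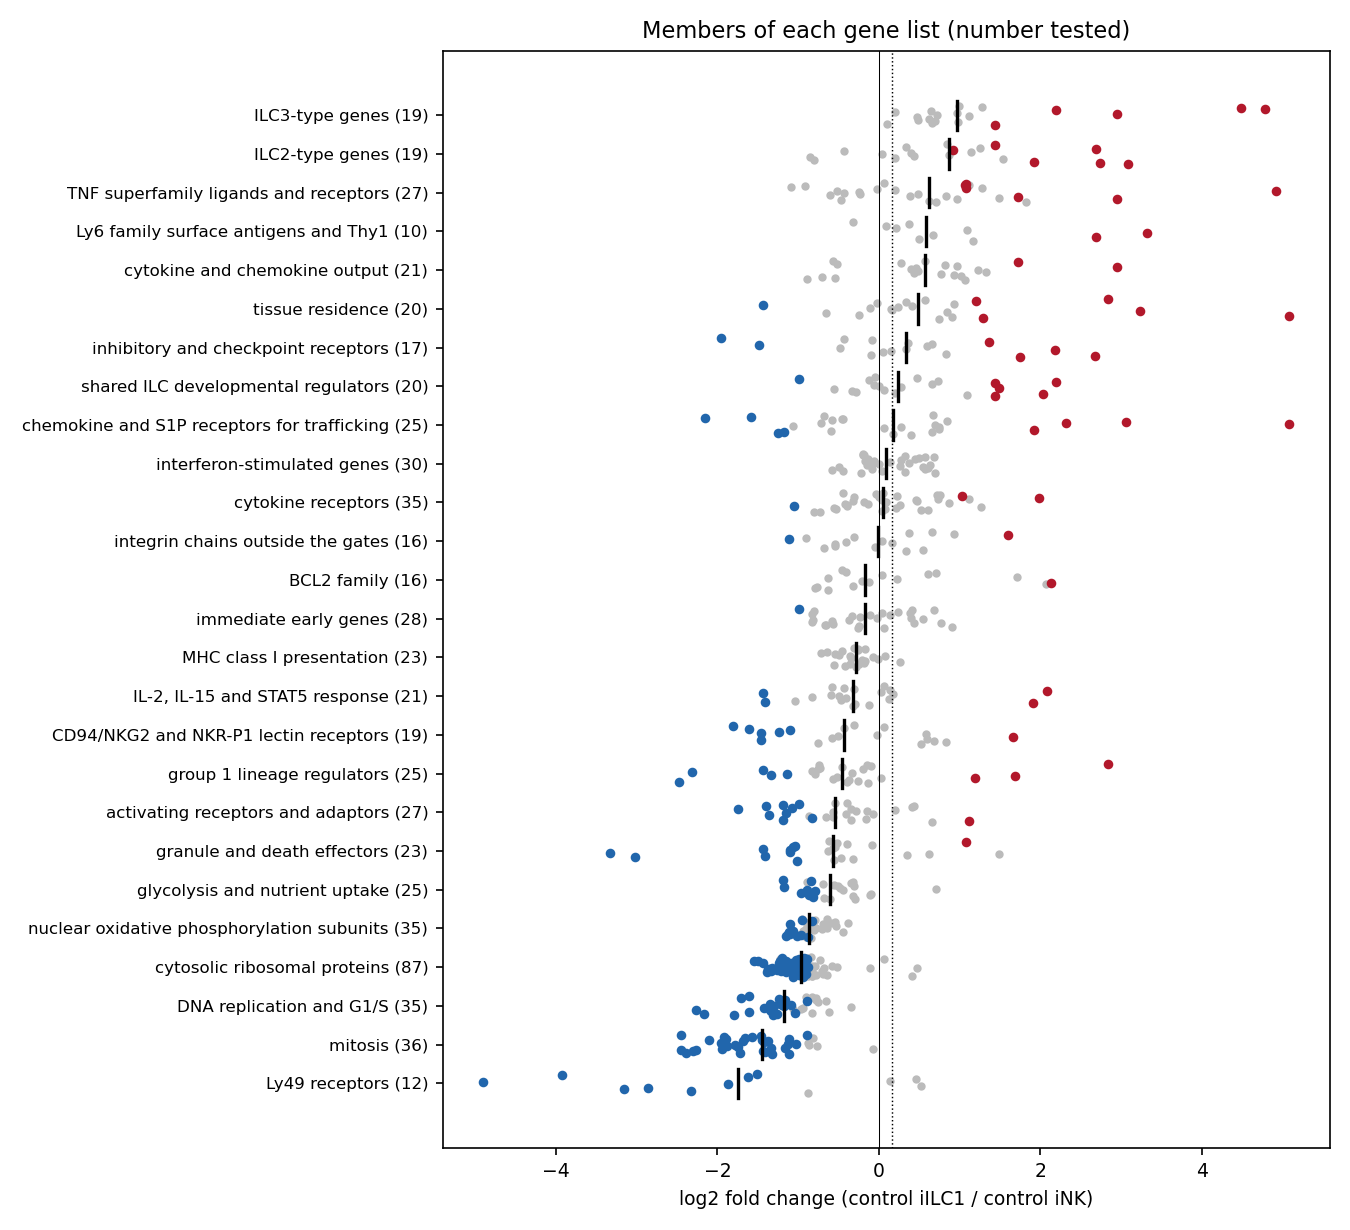
Log2 fold change, control iILC1 over control iNK, of each tested member (points) of 26 gene lists, with called members in red (higher) or blue (lower), list medians as black bars and the median of all genes as a dotted line at 0.16. Ly49, mitosis and replication genes lie furthest to the left, and ILC3-type, ILC2-type and TNF superfamily genes furthest to the right.

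Genes of tissue homing and residence rose in part. Of 20 residence genes, 5 rose and Prdm1 fell, against 0.911% higher and 3% lower over all genes, and the median was 0.49. Without iILC1 replicate 1, 3 were called higher. Cxcr6, for the chemokine receptor that holds lymphocytes in liver and other tissues (chromosome 9, 123806477 to 123811754, plus strand), lay at 7.65, 4.91 and 16.5 CPM in iNK and 511, 242 and 239 CPM in iILC1 (log2 fold change 5.09, SE 0.483, adjusted p = 4.85e-08, edgeR). No gene of these lists had a larger positive fold. The groups lay far apart, with iILC1 replicate 1 highest and iNK replicate 3 the highest of its group. Inpp4b, a phosphoinositide phosphatase, lay at 21.7, 18 and 17.8 CPM and 228, 145 and 170 CPM (log2 fold change 3.24, SE 0.314, adjusted p = 7.2e-08, edgeR). Sdc4 (1.21) and Cd101 (1.29) completed the higher members with Zfp683. Cd69, the activation and retention marker, lay at 22.3, 31.3 and 21.6 CPM and 45.3, 38.4 and 57 CPM, without overlap, but missed the threshold (log2 fold change 0.90, edgeR adjusted p = 0.079). Cd69 was called higher under 7 of 18 alternatives (upper-quartile factors, the 5 CPM filter, the 6 libraries alone, the replicate block, DESeq2, thinning and scaling on genes above 50 CPM), with adjusted p from 0.0082.

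Of 25 receptors of trafficking, 4 rose and 4 fell (2 without iILC1 replicate 3), against 0.911% higher and 3% lower over all genes. The oxysterol receptor gene Gpr183 lay at 15.5, 19.6 and 13.8 CPM in iNK and 102, 83.5 and 59.2 CPM in iILC1 (log2 fold change 2.32, SE 0.253, adjusted p = 6.25e-07, edgeR). Gpr34, a lysophospholipid receptor, rose by 3.06 and Ccr8 by 1.92. The groups did not overlap in any of these. S1pr5, the receptor by which NK cells leave marrow, fell from 138, 101 and 31.5 CPM to 23.1, 22.7 and 15 CPM (log2 fold change −2.16, SE 0.403, adjusted p = 0.00134, edgeR), and with the background covariate its adjusted p was 0.136. Ccr2 (−1.25) was lower too. Cx3cr1 was near the background in both groups, at 2.95 ± 1.35 CPM and 3.54 ± 1.46 CPM (SD, n = 3), and did not pass. Of 16 integrin chains outside the gates, Itgb3 rose (1.6) and Itgax fell (−1.11). The Itgax call was lost with the background covariate and without any of 4 libraries, iNK replicate 1 or 2 and iILC1 replicate 2 or 3 (edgeR adjusted p of 0.106 to 0.304).

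Gpr15, a homing receptor for the gut, was among the largest folds and has 2 overlapping RUNX matches 5′ of its start. It lay at 0.781, 0.491 and 0.48 CPM in iNK and 13.4, 8.94 and 8.98 CPM in iILC1 (log2 fold change 4.11, SE 0.465, adjusted p = 1.17e-06, edgeR), low in all libraries. Genes named by fold had to have no overlap and 10 CPM or more on average in the higher group. The lack of overlap was thus fixed by the rule that named Gpr15. The 250 bases before the RefSeq start (GRCm38.p6, chr16:58718873-58719122, minus strand) follow, with capitals over both matches to TGTGGTT, read on the opposite strand.
Gpr15: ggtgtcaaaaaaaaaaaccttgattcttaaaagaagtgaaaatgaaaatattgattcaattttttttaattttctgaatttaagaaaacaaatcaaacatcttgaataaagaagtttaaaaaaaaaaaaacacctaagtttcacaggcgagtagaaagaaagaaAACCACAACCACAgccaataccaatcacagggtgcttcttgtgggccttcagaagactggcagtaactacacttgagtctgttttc

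Tmem176a and Tmem176b, which encode related membrane proteins of lymphocytes and dendritic cells, rose together. Tmem176b (chromosome 6, 48833811 to 48841374, minus strand) lay at 11.2, 9.33 and 19.7 CPM in iNK and 352, 250.4 and 305 CPM in iILC1 (log2 fold change 4.49, SE 0.331, adjusted p = 4.01e-10, edgeR). Tmem176a (chromosome 6, 48841483 to 48845364, plus strand) lay at 4.37, 2.95 and 7.04 CPM and 156, 103 and 139.8 CPM (log2 fold change 4.79, SE 0.333, adjusted p = 1.59e-10, edgeR). In both genes iNK replicate 3 was the highest iNK library. The groups did not overlap, which naming by fold required. The genes are divergent neighbours whose RefSeq start sites lie 109 bases apart. The full 250 bases before the Tmem176a start hold 1 TCF/LEF match, outside the stretch shown, and those before the Tmem176b start hold none. The 108 bases between the start sites, common to both promoters, are shown on the plus strand (GRCm38.p6, chr6:48841375-48841482), with no motif match to mark and 63.9% G and C.
Tmem176b-Tmem176a: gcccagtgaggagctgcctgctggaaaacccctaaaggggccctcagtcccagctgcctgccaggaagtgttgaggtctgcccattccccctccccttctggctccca

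Other genes with large folds had varied roles. Ckb, a creatine kinase, lay at 1.41, 1.47 and 5.6 CPM in iNK and 161, 80.9 and 108 CPM in iILC1 (log2 fold change 5.35, SE 0.41, adjusted p = 7.28e-10, edgeR). Ly6c2, a surface antigen of monocytes and lymphocytes with a close copy in Ly6c1, lay at 52.3, 53.2 and 79.8 CPM and 795, 463 and 593 CPM (log2 fold change 3.32, SE 0.304, adjusted p = 2.57e-08, edgeR). Podnl1 (3.49), the keratin gene Krt83 (3.48), Apol7b (3.38) and the clock repressor gene Nr1d1 (3.37) were also higher. Nr1d1 was at or below the receptor floor in both groups, and its log2 fold change ranged from 2.77 to 5.90 over the alternatives. On the lower side, Clip3, a linker to microtubules, lay at 62, 63 and 57.1 CPM in iNK and 1.17, 4.97 and 1.83 CPM in iILC1 (log2 fold change −4.45, SE 0.391, adjusted p = 1.17e-08, edgeR). Klhl30 (−4.20), the adhesion gene Mcam (−3.78), Col8a2 (−3.51), Cox6a2 (−3.28), Hist1h2ap (−3.18) and the receptor kinase gene Ret (−2.95) were lower. S100a8, a granulocyte protein gene, had the largest lower fold of the named genes (−5.62, edgeR adjusted p = 0.0212) but lost its call under 8 alternatives (upper-quartile factors, the background covariate, scaling on genes above 50 CPM and 5 of 6 left-out libraries, with adjusted p of 0.0535 to 0.132). Markers of neutrophils and monocytes, of which it is one, are given with the other marrow cells. Of 54 named genes called lower, 12 lay at or below the receptor floor in iILC1.

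Some TNF family genes rose and none fell. Of 27 ligands and receptors, 6 were higher and none lower, with a median of 0.63. Tnfrsf25, for the death receptor DR3, lay at 2.5, 1.15 and 1.6 CPM in iNK and 70.5, 36.2 and 55.5 CPM in iILC1 (log2 fold change 4.93, SE 0.35, adjusted p = 2e-10, edgeR). Lta, for lymphotoxin alpha, rose by 2.95 and Tnf by 1.73, from 3.57 ± 0.876 CPM to 11.9 ± 3.32 CPM (SD, n = 3). Tnfsf8 (1.08), Tnfsf10 and Tnfsf14 (1.06) made up the 6. The Tnfsf14 call was lost without iNK replicate 1 or iILC1 replicate 3 (edgeR adjusted p of 0.0521 and 0.0501).

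Tnf and Lta were also the 2 of 21 secreted cytokine and chemokine genes that rose, with none falling. With the background covariate 5 rose. Ifng lay at 23, 24.6 and 8.64 CPM in iNK and 29.5, 26.8 and 19.8 CPM in iILC1, overlapping between the groups (log2 fold change 0.43, edgeR adjusted p = 0.5). The chemokine gene Xcl1 also overlapped and did not pass (0.57). With the background covariate both were called higher, Ifng with a log2 fold change of 1.35 (edgeR adjusted p = 0.0187) and Xcl1 with 1.43 (8.02e-05), and Xcl1 also with scaling on genes above 50 CPM (0.98, 0.0116).

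Socs2 and Cish, feedback genes of the factor STAT5 that IL-2, IL-7 and IL-15 activate, rose. Socs2 lay at 22.3, 26.5 and 32 CPM in iNK and 117, 111 and 115 CPM in iILC1 (log2 fold change 2.09, SE 0.239, adjusted p = 1.34e-06, edgeR). Cish lay at 15, 17.2 and 27.2 CPM and 65.5, 53.1 and 104 CPM (log2 fold change 1.91, SE 0.262, adjusted p = 2.71e-05, edgeR). The groups were apart in both. These were the 2 higher members of 21 genes of IL-2, IL-15 and STAT5 signalling, and the 2 lower ones were Gzmb and Prf1. The median was −0.32, or 0.10 with the background covariate, and without iNK replicate 3, 5 were called lower.

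Of 35 cytokine receptors outside the gate, Il2ra and Il4ra rose and Il10ra fell. With the background covariate 8 rose and none fell. Il2ra, for the high-affinity IL-2 receptor chain CD25, lay at 4.53, 5.73 and 11.2 CPM in iNK and 29.5, 23.4 and 31.9 CPM in iILC1 (log2 fold change 1.98, SE 0.327, adjusted p = 0.000334, edgeR). Il2rb, the chain shared by the IL-2 and IL-15 receptors, lay at 4032, 4064 and 2656 CPM and 3311, 2306 and 3100 CPM, overlapping (−0.30, edgeR adjusted p = 0.56), and its estimate was 0.20 with the background covariate. The Il4ra call (1.03) was lost without iNK replicate 2 or 3 or iILC1 replicate 1 or 3 (edgeR adjusted p of 0.0603 to 0.151), and that of Il10ra (−1.05) with the background covariate and without iNK replicate 1 or 2 or iILC1 replicate 2 or 3 (0.052 to 0.133). Kit (0.72) and Il18r1 (0.09) did not pass. Kit was called higher under 6 alternatives, the background covariate giving the largest log2 fold change (1.36, edgeR adjusted p = 0.000934). Of 16 BCL2 family genes, Bcl2a1d rose (2.13), a gene whose near copies can share reads. The survival gene Bcl2 lay at 763, 649.8 and 593 CPM and 546, 439 and 624 CPM and did not pass (−0.32).

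Genes that mark ILC2 and ILC3 were among the higher ones. Of 19 ILC3-type genes, 5 rose, among them Tmem176a, Tmem176b, Ahr and Lta, and all 19 estimates were above 0, with a median of 0.97. Of 19 ILC2-type genes, 6 rose, with a median of 0.87. Arg1, for arginase 1, which marks ILC2s and precursors, lay at 2.03, 3.44 and 5.76 CPM in iNK and 40.4, 33.6 and 22.4 CPM in iILC1 (log2 fold change 3.09, SE 0.375, adjusted p = 3.7e-06, edgeR). Bmp7, a growth factor gene, lay at 3.75, 7.7 and 10.2 CPM and 44.5, 36 and 63.9 CPM (log2 fold change 2.74, SE 0.326, adjusted p = 2.58e-06, edgeR), and Ly6a, for Sca-1, rose by 2.69. Neither overlapped. Rora, Ccr8 and Lpcat2 (0.92) were the others. Most of these genes were at or near the receptor floor in iNK, and low genes as a whole leaned the same way (median 0.45 at 1 to 10 CPM). The part of that shift in these medians was not tested.

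Some genes of basic metabolism fell, and the counts moved widely between alternatives. Of 87 cytosolic ribosomal protein genes, 45 fell, against 3% of all genes, and 42 did not pass, with a median of −0.96. Of 35 nuclear-encoded subunits of oxidative phosphorylation 11 fell (median −0.86), and of 25 genes of glycolysis and nutrient uptake 9 fell (median −0.60), with none rising. Tpi1, a glycolytic enzyme gene, lay at 295, 280.5 and 291 CPM in iNK and 150, 103 and 129 CPM in iILC1 (log2 fold change −1.18, SE 0.242, adjusted p = 0.00359, edgeR), and its adjusted p was 0.0531 without iILC1 replicate 2. With the background covariate 11 ribosomal, 1 oxidative phosphorylation and 6 glycolysis genes were called lower. Without iNK replicate 1 these counts were 2, 1 and 2, without iNK replicate 2 they were 31, 8 and 3, without iILC1 replicate 1 they were 60, 18 and 4, without iILC1 replicate 2 they were 1, 0 and 0, and without iILC1 replicate 3 they were 3, 0 and 3. Genes above 100 CPM as a whole had a median of −0.44, with 243 of 2418 called lower. The part of that shift in these counts was not tested. No member of 23 MHC class I genes or 30 interferon-stimulated genes was called by edgeR. Of 28 immediate early genes, which rise with handling stress, Zfp36 alone was called, lower (−0.99). For the MHC and interferon lists, DESeq2 called 1 of the former lower and none of the latter, and over all genes 5615 had an unadjusted edgeR p below 0.05.

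Markers of other marrow cells were read for their levels. T and NKT markers summed to 703 to 1030 CPM in iNK and 824 to 1310 CPM in iILC1, with 13 and 16 of 18 above 1 CPM in every library, and of the 16 tested 8 were higher and Trdc was lower (−1.11). Without iNK replicate 1 or iILC1 replicate 3, 5 were called higher. Cd3e, a signalling chain of the T cell receptor that the CD3 gate excluded as a protein, lay at 2.19, 2.78 and 4.96 CPM in iNK and 72.2, 40.5 and 79.3 CPM in iILC1 (log2 fold change 4.27, SE 0.458, adjusted p = 4.56e-07, edgeR). Cd3g rose by 1.30, whereas Cd3d, at 25.5, 29.6 and 40.0 CPM and 56.5, 35.8 and 75.5 CPM, overlapped and did not pass, though it was called higher under 7 alternatives. Neutrophil and monocyte markers summed to 1170 to 2260 CPM in iNK and 578 to 848 CPM in iILC1. B and plasma cell markers overlapped at 470 to 687 and 539 to 759 CPM, and 3 of the 20 tested, all also found in antigen-presenting cells (Cd74 3.02, H2-Aa 2.78 and H2-Ab1 2.43), rose. Dendritic cell markers summed to 714 to 1130 and 586 to 728 CPM, with 3 of 17 higher and 3 lower. The higher ones include H2-Aa and H2-Ab1 again, and the lower ones were Irf8, Itgax and Cox6a2, all given above. Irf8 and Itgax had the highest levels of that list in iNK and so weighed most in its sums there. Stroma markers summed to 207 to 241 and 297 to 329 CPM, with Cxcl12 (1.22) the single call of 13. Stem and progenitor markers overlapped at 197 to 310 and 234 to 296 CPM, with Myb and Sox4 (−2.23) lower of 14. Of 15 erythroid, 11 megakaryocyte and 12 mast cell markers, 1 each was lower (Tfrc −0.84, Gp1bb −3.36 and Cma1 −2.03). The part of such cells in any result above was not tested.

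Markers of the labelled populations were present in both. All 14 NK markers and all 14 ILC1 markers were above 1 CPM in every library of both groups. Of the ILC1 markers 7 rose in iILC1 and none fell, and of the NK markers 7 fell and none rose. The latter count was 4 without iNK replicate 1 or 2 or without iILC1 replicate 2 or 3, and 2 NK markers were called higher with the background covariate or with scaling on genes above 50 CPM. The lists share Tbx21, Ncr1, Klrb1c and Il2rb, none of which was called. All 7 higher ILC1 markers were also counted in lists above, so those counts are not separate. Tmem176a and Tmem176b are on the ILC3-type list, Rora on the ILC2-type list, and Cxcr6 and Zfp683 on the residence list. Tnfsf10 is on the effector and TNF lists, and Cd200r1 is on the inhibitory list. Lower NK markers also repeat earlier calls, among them Eomes (regulators), Gzma, Prf1 and Nkg7 (effectors) and Klre1 (lectin receptors).

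The same contrast in the cKO libraries, which share no library with the control ones, called 923 genes (3.42%), 469 higher (1.74%) and 454 lower (1.68%) in iILC1. Of the 246 genes higher in control, 225 (91.5%) had the same sign in cKO and 158 (64.2%) were called higher there. Of the 810 lower in control, 792 (97.8%) had the same sign and 284 (35.1%) were called lower. Over all genes tested 63.4% had the same sign. The 4 cKO iILC1 and 4 cKO iNK libraries did not overlap in 6.61% of all genes tested. The 442 genes called the same way were 41.9% of the control calls and 47.9% of the cKO calls.

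The lineage genes with the largest folds in control were called in the same direction in cKO. There the log2 fold change was 6.19 for Cxcr6, 5.64 for Tmem176b, −4.93 for Klra4, −3.09 for Eomes and −3.26 for Gzma. Ly49 genes were lower in 9 of 12, mitosis genes in 26 of 36 and replication genes in 6 of 35. None of the 87 ribosomal or 35 oxidative phosphorylation genes was called in cKO by edgeR. Their medians there were −0.51 and −0.19, and no member of either list differed between genotypes by the test of that difference. Gzmb, with −0.17 in cKO (edgeR adjusted p = 0.968), and Ifng, with 2.21 (edgeR adjusted p = 4.27e-05), passed in one genotype only, and neither difference between genotypes passed its own test (adjusted p of 0.36 and 0.431). That test, of the cKO fold minus the control fold, called 21 genes (0.0778%), 6 positive (0.0222%) and 15 negative (0.0556%), 8 of the 21 being among the 1056.

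**Figure D5:**
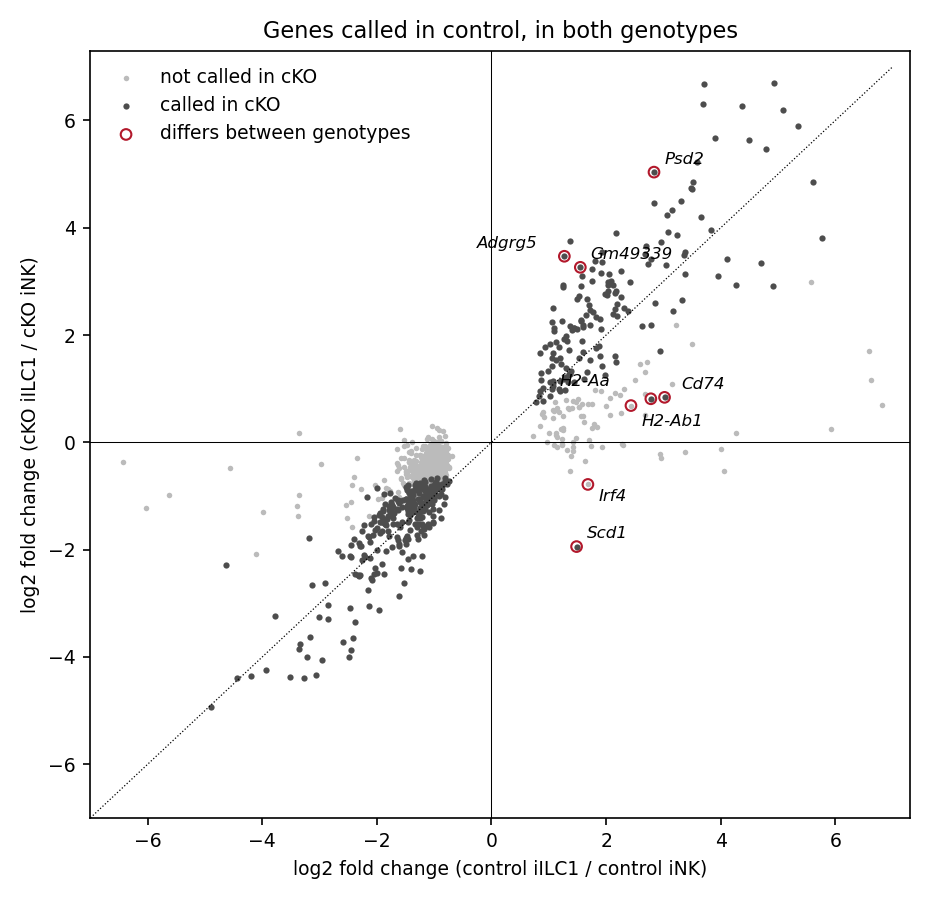
Log2 fold change of iILC1 over iNK in control (x axis) and in cKO (y axis) for the 1056 genes called in control, dark where also called in cKO, with red rings around 8 genes whose difference between genotypes was called. Points lie mostly in the lower left and upper right corners, and Scd1 and Irf4 are the ringed genes below 0 on the y axis.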

How the data were processed

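RNA from 2000 sorted cells per library was amplified with SMART-Seq v4 and made into libraries with Nextera XT, per the labels' protocols, a method that does not mark strand and has no molecular identifiers. The deposited table holds raw read counts per gene made by the authors with Trimmomatic 0.33, HISAT2 2.1.0 and featureCounts of Subread 1.6.5 on mm10, per the submitters' processing notes, and per the file headers also each gene's position and exon length. The annotation release, strand setting and handling of multi-mapping reads are not given in the sources used here. Symbols matched 45143 of 46078 identifiers (97.97%). Promoters came from RefSeq (GRCm38.p6) for 15831 genes tested, and 80 of the 110 named genes.

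Genes were filtered with edgeR 4.0.16 (minimum count 10, minimum total 15), scaled by TMM and fitted over all 14 libraries with 4 group means and 10 residual degrees of freedom (R 4.3.3, limma 3.58.1). The quasi-likelihood F test was adjusted by Benjamini-Hochberg over 26990 genes at 0.05, and all tests are two-sided. The SE is the log2 fold change divided by the root of F. The common biological coefficient of variation was 30%. On simulated counts for 25437 genes, 12 of 100 genes changed 2-fold and 96 of 100 changed 4-fold were recovered, with 6 false calls. The simulation gave every gene the same coefficient of variation and all groups the same profile apart from the changed genes. It held no shift by level and no background difference, so these rates may not hold for the real libraries. Alternatives were other scalings, no filter or one at 5 CPM, the 6 libraries alone, a replicate block, the background covariate, leaving out libraries or marker, ribosomal and mitochondrial genes, thinning, and DESeq2 1.42.0. Replicates of a group differed beyond counting error, so none was a copy. Named genes were up to 12 per direction by fold (groups apart, higher group averaging 10 CPM or more). To these came up to 4 called members of each gene list by smallest p, a preset list, the 5 gate genes and the Cd3 genes. Other list members are given by fold alone. Some called list members are counted but not reported here by name. The comparison and the gene lists were chosen with earlier results of these data known.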

Additional observations from a re-analysis of the deposited data

Results flagged for a closer look

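Among the 1056 genes called in control, 8 had a fold of iILC1 over iNK that differed between cKO and control by edgeR's test of that difference. They are named here after their values were seen. For Adgrg5, an adhesion G protein-coupled receptor gene, the difference of folds, cKO minus control, was 2.20 (edgeR adjusted p = 0.00185). It lay at 98.5, 93.3 and 111 CPM in control iNK, 268, 206 and 258 CPM in control iILC1, 30.4, 24.5, 20.4 and 17.5 CPM in cKO iNK and 346, 222, 205 and 252 CPM in cKO iILC1. The iILC1 libraries of both genotypes covered a like range, and the cKO iNK libraries were all below the control iNK libraries.

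Scd1, for the desaturase that makes monounsaturated fatty acids, was called in opposite directions, at 1.49 in control and −1.94 in cKO, and the difference of folds, cKO minus control, was −3.43 (edgeR adjusted p = 0.00199). It lay at 1.87, 2.13 and 1.92 CPM in control iNK, 5.85, 5.17 and 5.68 CPM in control iILC1, 15.9, 13.4, 20.7 and 9.11 CPM in cKO iNK and 3.39, 2.45, 4.14 and 5.34 CPM in cKO iILC1. Irf4, a factor of lymphocyte activation, had 1.68 and −0.78, and the difference of folds, cKO minus control, was −2.47 (edgeR adjusted p = 0.0448). Psd2 had 2.84 and 5.04, with a difference of 2.20 (0.0157), and the uncharacterised Gm49339 had 1.55 and 3.26, with a difference of 1.71 (0.039).

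Genes of MHC class II made up the other 3. Cd74, for the invariant chain, lay at 13, 18 and 11.7 CPM in control iNK, 154, 114 and 79.1 CPM in control iILC1, 192, 144, 189 and 205 CPM in cKO iNK and 372, 342, 348 and 243 CPM in cKO iILC1, and the difference of folds, cKO minus control, was −2.18 (edgeR adjusted p = 0.00318). The cKO iNK libraries were far above the control iNK libraries. H2-Aa had a fold of 2.78 in control and 0.81 in cKO, a difference of −1.97 (0.039), and H2-Ab1 2.43 and 0.69, a difference of −1.75 (0.0431). All 3 are also on the B cell marker list, of which 6 of 20 members differed between genotypes, and the part of B cells in these values was not tested.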

How the results depend on the processing

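The count of 1056 called in control became 1678 with a filter at 5 CPM, 1696 with only its 6 libraries and 2180 with DESeq2, and leaving out 1 library gave 394 to 1701. The cKO count of 923 became 1697 with the background covariate. The count of 21 for the difference became 56 with no filter, 34 with the background covariate, 9 without marker, ribosomal and mitochondrial genes and 37 with DESeq2, and 10 to 33 without 1 library. With the replicate number as a block the control count was 1594, of which 1050 were among the 1056. Same-numbered libraries of control correlated at 0.492, −0.072 and 0.308 in their deviations over 11100 genes, and different-numbered ones at −0.515 to 0.354. The labels name no shared animal, so the numbers were not taken to pair samples. Whether same-numbered libraries share a mouse was not tested. The cause of these shifts was not tested.

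Of 94 named called genes none changed direction under the 18 alternatives, and 21 lost their call under at least 1, 10 of them with the background covariate. The 94 include gate genes, and most were named for a large fold or a small p in these same libraries. Log2 fold changes of genes not called changed sign as follows. With upper-quartile factors Tbx21 was 0.031 and Zbtb16 0.17. Zbtb16 was 0.11 with the 5 CPM filter, 0.017 with only the 6 libraries and 0.048 with thinned libraries. With the background covariate Cd27 was 0.21, Itgam 0.11, Bcl2 0.018, Il2rb 0.20, Tbx21 0.42, Zbtb16 0.25 and Cx3cr1 −0.60. Without the libraries lowest on component 1, Tbx21 was 0.019 and Cx3cr1 −0.058. Scaled on genes above 50 CPM, an alternative chosen after seeing the data as was the thinning, Itgam was 0.051, Bcl2 0.069, Il2rb 0.094, Tbx21 0.19 and Zbtb16 0.32. Leaving out 1 control library moved Tbx21 between −0.49 and 0.025, Zbtb16 between −0.28 and 0.055, Il18r1 between −0.20 and 0.32, Gata3 between −0.10 and 0.38 and Cx3cr1 between −0.10 and 0.59. Among 16 named genes not called, calls were gained 27 times over the alternatives.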

Other observations

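A further set of 4 gene groups was drawn up after the values were seen and is given as values only. T cell receptor gamma genes, which innate lymphocytes can transcribe without a rearranged receptor, summed to 138 to 246 CPM in control iILC1 and to 9.17 to 22.4 CPM in control iNK. Of 9 tested, 6 were called higher by edgeR, against a background of 0.911% of all genes, with log2 fold changes of 4.38 for Tcrg-C4, 3.95 for Tcrg-V4, 3.91 for Tcrg-C2, 3.70 for Tcrg-V1, 3.17 for Tcrg-C1 and 2.11 for Tcrg-V5. Tcrg-V4 was low in both groups, at 2.63, 1.19 and 2.02 CPM in control iILC1 and 0, 0.33 and 0 CPM in control iNK. Its fold therefore rests on few reads. In cKO 7 of the 9 genes were higher. Their near-identical constant regions can share reads, so the split between them is uncertain. The part of T cells in these values was not tested.

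Macrophage genes summed to 250 to 421 CPM in control iILC1 and 112 to 176 CPM in control iNK. Of 18, 9 were called higher, against 0.911% of all genes tested. Among them were the complement gene C1qb (3.16), the lipid carrier gene Apoe (2.86), the mannose receptor gene Mrc1 (1.87) and the haem oxygenase gene Hmox1 (2.17). Those not called included Cd68 (0.01), Mertk (0.49), Cd163 (0.68) and Vcam1 (0.72). In cKO 12 of the 18 were higher, against 1.74% of all genes. Neutrophil and monocyte markers summed to less in the same iILC1 libraries (578 to 848 CPM, against 1170 to 2260 CPM). The part of macrophage RNA in the iILC1 libraries was not tested. Of 12 Notch pathway genes, Dtx1 (3.04), Jag1 (1.83) and Dll1 (1.55) were higher and Nrarp (−2.38) lower, with a median of −0.01. Of 10 haem and iron genes, Hmox1 and the iron exporter gene Slc40a1 (1.76) were higher and the transferrin receptor gene Tfrc (−0.84) lower. Hmox1 and Slc40a1 are also among the 9 higher macrophage genes, so these calls are not separate. Over all genes tested 0.911% were higher and 3% lower.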
